A study of Homo sapiens with 5 samples.

Results

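DHRS2 is a gene of the short-chain dehydrogenase/reductase (SDR) family, and its transcript was followed in KM-H2, an established Hodgkin lymphoma cell line of B-lineage origin. Its members here were found by gene symbol: 1 of the 8746 probe sets measured on each array carries the symbol DHRS2 alone. That probe set is 206463_s_at. The accession given for it in the platform annotation is among the RefSeq transcripts of DHRS2, of which 3 are curated, and the ending of its name marks a probe set that can bind more than 1 transcript. DHRS2 was chosen by its high signal and its difference between the treatments on these same arrays, so its own values are given as a description and carry no test.

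KM-H2 cells (written KMH2 in the labels) were kept for 16 hours in RPMI1640 with serum and antibiotics, together with 30 uM LY294002 or with DMSO, the solvent used as the control. There were 3 DMSO arrays and 2 LY294002 arrays, since the submitters dropped 1 array of a planned 3 against 3 for high background. LY294002 is a synthetic inhibitor of phosphoinositide 3-kinase that is also known to act on mTOR and on BET bromodomain proteins. All arrays come from a single cell line, and the labels do not say whether replicates were separate cultures. The p-values below therefore reflect how far these arrays vary, which could be technical variation alone.

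SDR enzymes use NAD(H) or NADP(H) to oxidise or reduce small molecules such as steroids, retinoids, sugars and carbonyl compounds. The DHRS2 protein, also called HEP27, reduces dicarbonyl compounds with NADPH, and it has been described in mitochondria and in the nucleus, where it binds the ubiquitin ligase MDM2. The gene is known as a target of the transcription factor MYB and as one that inhibitors of histone deacetylases, such as butyrate, can switch on.

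The bases just before the DHRS2 start site are shown because a core promoter lies around a gene's start site. The stretch is chr14:23630015-23630114 on the plus strand of GRCh38.p14, as given by RefSeq, written 5′ to 3′ with the letters TATAAA in capitals.

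DHRS2 promoter: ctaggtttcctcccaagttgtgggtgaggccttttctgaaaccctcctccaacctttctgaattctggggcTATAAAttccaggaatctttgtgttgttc

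The motif TATAAA, the core of a TATA box, begins at position -29 from the annotated start. On the same strand it begins between -40 and -20 in 809 of 35116 RefSeq promoters, or 2.30%. The 250 bases before the DHRS2 start hold 0 CG dinucleotides, against a median of 11 over all promoters, and 6.06% of promoters had as few. Their GC content was 43.2%, against a median of 58%. Searched on both strands of those 250 bases, the letters CCAAT (in 32.0% of promoters), GGGCGG (42.6%), CACGTG (6.34%), AACNG, the core of the MYB motif (70.6%), and TGTTTAC, a FOXO motif (2.98%), were not found in DHRS2. These are matches of letters and show no binding.

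DHRS2 was already a bright transcript with DMSO and was higher still with LY294002. On the log2 scale of the deposited values it stood at 11.27, 11.48 and 11.45 on DMSO replicates 1, 2 and 3, and at 12.86 and 12.87 on LY294002 replicates 1 and 2. The groups do not overlap: both LY294002 arrays lie above every DMSO array, as in 16.2% of all genes. DMSO replicate 1 is the lowest of the 5. The group means were 11.40 ± 0.11 (SD, n = 3) and 12.86 ± 0.0049 (SD, n = 2). The log2 difference was 1.46 ± 0.07 (the standard error of a limma fit over all probe sets), a 2.76-fold higher level with LY294002. Set array against array, the smallest gap was 1.38 (2.60-fold, DMSO replicate 2 against LY294002 replicate 1) and the largest 1.60 (3.03-fold, DMSO replicate 1 against LY294002 replicate 2). In bulk RNA, more cells that carry the transcript and more of it in each cell cannot be told apart.

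**Figure D1:**
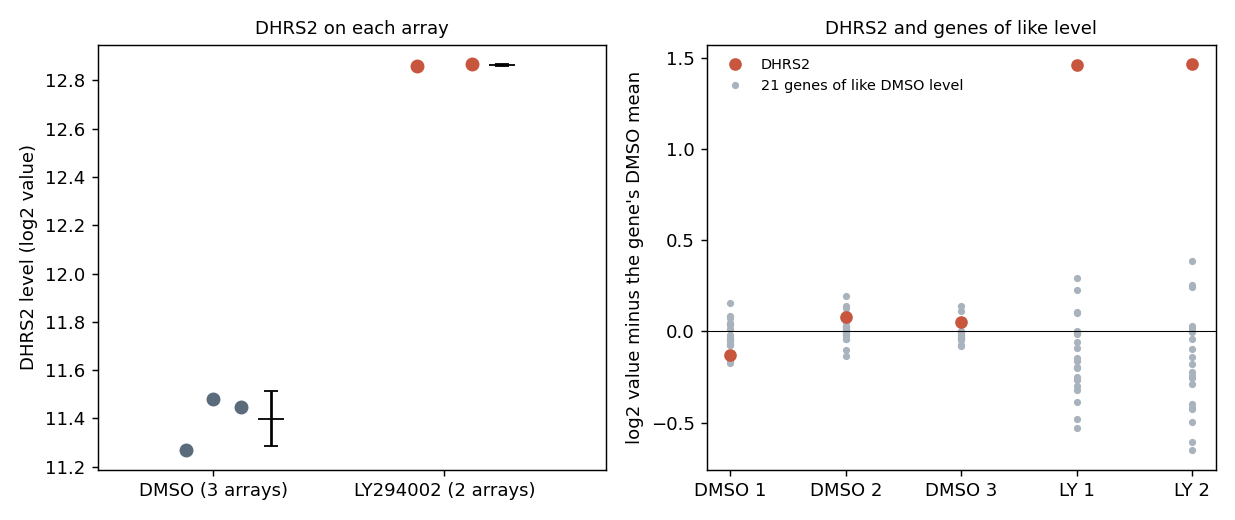
Left, the DHRS2 log2 value on each array, with black bars for the mean and SD of the 3 DMSO and the 2 LY294002 arrays (the axis does not start at 0). Right, DHRS2 and 21 genes of like DMSO level on every array, each as the log2 value minus its own DMSO mean; DHRS2 is apart from them on both LY294002 arrays and among them on the DMSO arrays.

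The position of DHRS2 among all probe sets moved with it. Counted from the brightest of 8746, its probe set was number 120, 110 and 109 on DMSO replicates 1, 2 and 3, and number 18 and 20 on the LY294002 arrays. So 1.23% to 1.36% of probe sets were brighter with DMSO, and 0.194% and 0.217% with LY294002. Probe sets bind with unequal strength, so these ranks order signals and not amounts of RNA. The distance to the brightest probe set of the same array shrank from between 2.18 and 2.42 log2 units to 0.80 and 0.82. Signals this near the top of an array can be compressed, and how far that holds here was not tested.

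Measures taken within each array, which need no scaling between arrays, gave differences of like size. DHRS2 minus the array's own median averaged 5.13 ± 0.12 (SD, n = 3) on the DMSO arrays, while the LY294002 arrays averaged 6.59 ± 0.02 (SD, n = 2), a difference of 1.46. The deposited array medians were already 6.26 to 6.29, so this measure could move little from the plain difference. Against GAPDH, the glycolytic enzyme often used as a loading reference, DHRS2 lay at -1.63, -1.44 and -1.45 log2 units on the DMSO arrays and at -0.01 and -0.03 on the LY294002 arrays. The shift relative to GAPDH, which itself differed by -0.02, was 1.49. Relative to the 3′ control probe set of ACTB, the cytoskeletal actin, it was 1.58. By each of these references both LY294002 arrays were above all DMSO arrays.

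Among genes of like level DHRS2 had the highest log2 difference. There were 21 other genes whose DMSO mean lay within 0.25 log2 units of that of DHRS2, and their differences ran from -0.59 to 0.34 with a median of -0.13. The gap between DHRS2 and the next gene was 1.12. The genes next to it were RPL18 at 0.34 ± 0.10, HMGN2 at 0.24 ± 0.06 and RPL35 at 0.17 ± 0.05, and none of these passed limma (adjusted p = 0.194, 0.146 and 0.226). RPL18 and RPL35 encode proteins of the large ribosomal subunit, and HMGN2 is a nucleosome-binding protein. At the other end were the glycolytic enzyme gene PGAM1, the thymidylate synthase gene TYMS and the cytokine gene MIF, at -0.59 ± 0.05, -0.50 ± 0.12 and -0.45 ± 0.07. PGAM1 fell (limma adjusted p = 0.0352), the 1 gene of the 21 that passed, where 0.908% of all genes did, and TYMS and MIF did not pass (0.152 and 0.0750).

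On the DMSO arrays the replicate spread of DHRS2 lay within that of genes of like level. Its DMSO arrays spanned 0.21 log2 units, while the like-level genes spanned a median of 0.15 and from 0.04 to 0.35, and 7 of the 21 spanned more than DHRS2. Its LY294002 arrays spanned 0.0069, against a median of 0.09 in the like-level genes. The first place of DHRS2 by log2 difference held in a window of 0.5 (57 other genes, the highest at 0.51). It also held among the 12 genes that share its level on the LY294002 arrays, whose differences ran from -0.02 to 0.26. That last group is made of GAPDH and ribosomal protein genes. The comparisons with brighter genes and in linear signal that follow were chosen after the values were seen. Of the 72 genes brighter than DHRS2 with DMSO, 0 were at least 1.5-fold higher with LY294002, and the highest log2 difference was 0.45. Of the 244 genes with a DMSO mean of 10 or more, 1 was at least 2-fold higher, DHRS2 itself.

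**Figure D2:**
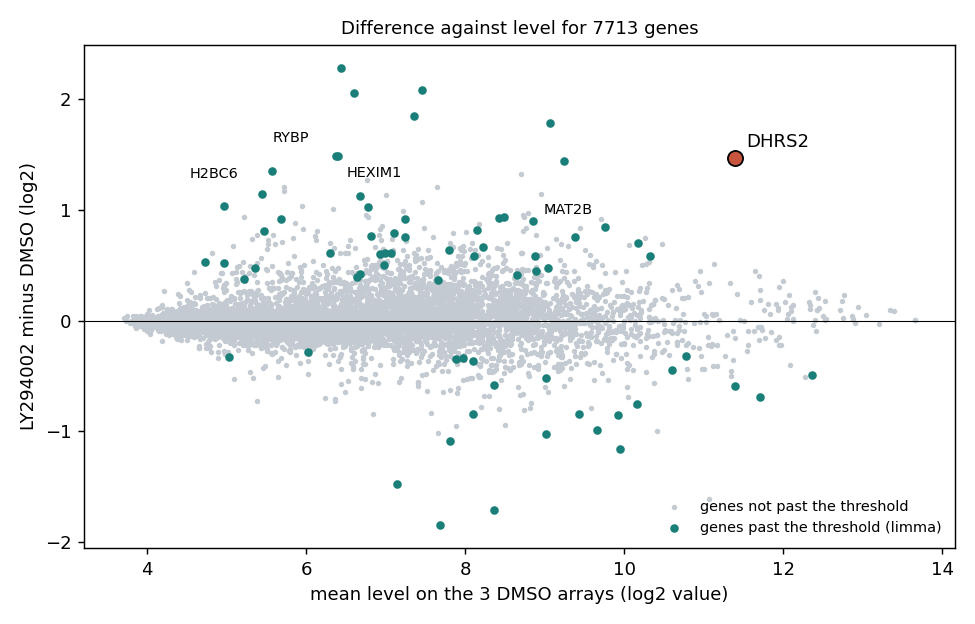
Each point is a gene, with its mean on the 3 DMSO arrays on the x axis and its LY294002 minus DMSO difference on the y axis, both in log2 units. Green points passed limma; DHRS2 (red) lies at 11.40 and 1.46, to the right of all other genes that were at least 2-fold higher.

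Over all 7713 genes the log2 difference of DHRS2 was the 8th highest, and the smallest gap between its groups was the 6th largest. In linear signal, 2 to the power of the log2 value, DHRS2 went from 2705 ± 209 (SD, n = 3) to 7449 ± 25 (SD, n = 2). This gain of 4744 units was the largest of any gene. The linker histone gene H1-10 followed with 1303 and the ribosomal protein gene RPS15 with 1164. Gains of different probe sets share no calibrated unit, so this order is a property of the signals. By rank, 48 genes were in the brightest 50 on both LY294002 arrays, and 2 of them, DHRS2 and OAZ1, an inhibitor of polyamine synthesis, were outside the brightest 50 on every DMSO array.

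The genes whose pattern over the 5 arrays was most like DHRS2 were found by the root mean square distance after each gene was set to its own DMSO mean. The nearest was the core histone gene H2BC6 (distance 0.12), followed by RYBP, a partner of Polycomb proteins (0.12), the core histone gene H2BC12 (0.15), ETV5, an Ets transcription factor (0.16), and HEXIM1, which holds the transcription elongation kinase P-TEFb inactive (0.18). H2BC6 stood at 5.60, 5.63 and 5.49 with DMSO and at 6.89 and 6.96 with LY294002. RYBP went from 6.28, 6.48 and 6.43 to 8.06 and 7.70, and HEXIM1 from 6.54, 6.25 and 6.33 to 7.97 and 7.75. In all 5 both LY294002 arrays lie above every DMSO array, as in 16.2% of all genes. The 5 were picked for likeness to DHRS2, whose groups are apart, so this adds nothing about them. The LY294002 arrays of H2BC6, RYBP, ETV5 and HEXIM1 lie farther from each other than those of DHRS2. Those of H2BC12 lie closer (SD 0.0026 against 0.0049, n = 2). The likeness uses the contrast that chose DHRS2 and carries no test.

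Like DHRS2, H2BC12 was lowest on DMSO replicate 1, at 8.36 against 8.88 and 8.86, before 10.02 and 10.01 with LY294002. ETV5 was too, at 6.46 against 6.96 and 6.88, before 8.08 and 7.98. Of 7712 genes, 10 lay within a distance of 0.25. The probe sets of histone genes can bind RNA of near-identical copies, so H2BC6 and H2BC12 are uncertain as values of single genes. With Pearson's correlation as the measure of likeness, 0 of the 5 were among the nearest 5, and over the 5 arrays 26 genes had a correlation with DHRS2 above 0.99.

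Of 59 other SDR family genes listed, 36 were measured by a probe set of their own; DHRS4 and DHRS4L2, the close relatives that follow DHRS2 on its chromosome, were not among them. By limma 1 member rose and 0 fell, where 0.609% of all genes rose and 0.298% fell, and 8 members had an unadjusted p under 0.05, beside 1320 of all 7713 genes. The median difference over the 36 was -0.05, beside -0.01 over all genes, and 32 of them lay within 0.25 log2 units of 0, as did 6638 of the 7713. The gene that rose was MAT2B, whose protein has an SDR fold but serves as the regulatory subunit of methionine adenosyltransferase. It stood at 8.80, 8.91 and 8.87 with DMSO and at 9.88 and 9.63 with LY294002, a difference of 0.89 ± 0.09 (limma adjusted p = 0.0388). Both LY294002 arrays of MAT2B lie above its DMSO arrays, at a smaller difference than that of DHRS2.

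DCXR, a reductase of dicarbonyls and xylulose, was the next highest family member at 0.50 ± 0.06, with 7.92, 7.97 and 8.06 against 8.44 and 8.53. Its limma adjusted p was 0.0504, on the far side of the threshold. HSD17B11, a hydroxysteroid dehydrogenase of lipid droplets, was at 0.50 ± 0.06 as well (0.0539). HSD17B11 was picked out after its values were seen. At the low end BDH2, a hydroxybutyrate dehydrogenase, was at -0.71 ± 0.19 (0.177) and GMDS, of the GDP-fucose pathway, at -0.21 ± 0.11 (0.431). BDH2 varied among the DMSO arrays from 6.03 to 6.64. CBR1, a carbonyl reductase, was at 0.06 ± 0.05 (0.586), and HSD17B10, a mitochondrial member, at -0.18 ± 0.06 (0.244).

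**Figure D3:**
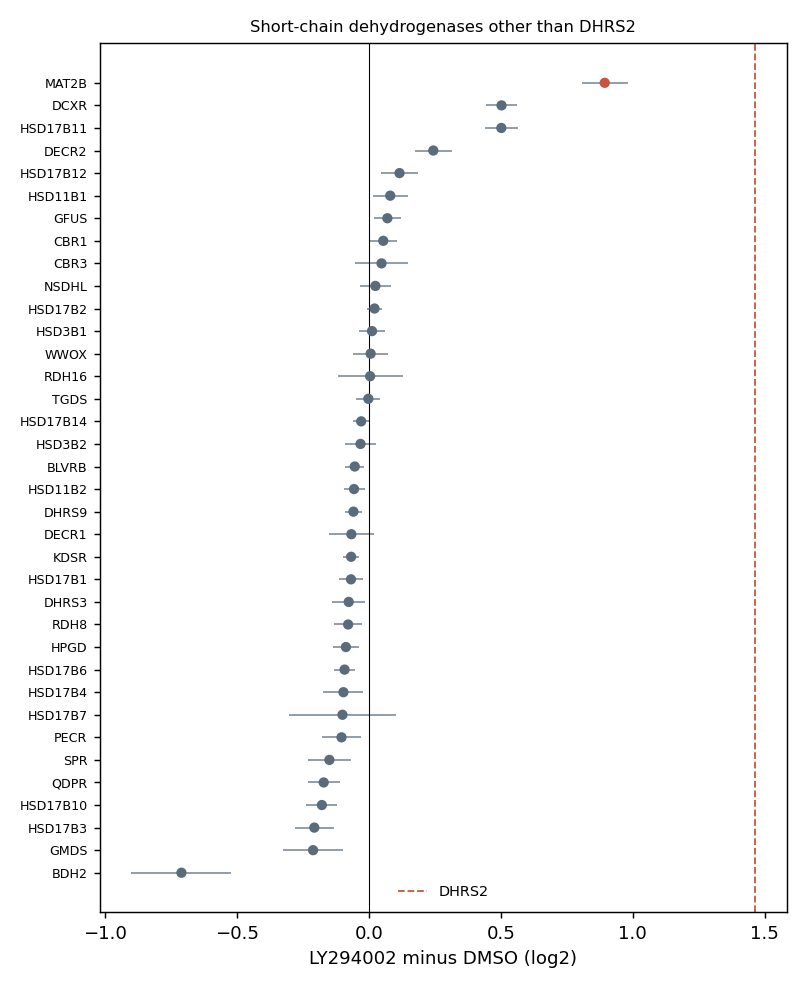
LY294002 minus DMSO difference, in log2 units with the standard error of the limma fit, for the 36 measured short-chain dehydrogenases other than DHRS2; red marks the gene past the threshold (MAT2B) and the dashed line is DHRS2. All 36 members lie to the left of DHRS2, and 32 within 0.25 of 0.

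Enzymes outside the family that also handle carbonyls, glyoxals and quinones had differences from -0.22 to 0.34. Of 27 listed, 24 were measured. By limma 0 passed, where 0.908% of all genes did. An unadjusted p under 0.05 was found for 5, all 5 higher with LY294002. Over all 7713 genes 1320 were at such a p, 819 of them higher. The median was 0.01. The highest were AKR1C1, an aldo-keto reductase of steroids, at 0.34 ± 0.05 (limma adjusted p = 0.0776) and NQO2, a quinone reductase, at 0.32 ± 0.09 (0.202). The lowest were the aldehyde dehydrogenase genes ALDH1B1 at -0.22 ± 0.10 (0.371) and ALDH1A3 at -0.14 ± 0.08 (0.429). AKR1C1 has near-identical relatives, and its probe set may bind their RNA.

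The DHRS2 protein binds MDM2, whose own probe set was at 4.20 on all 3 DMSO arrays and at 4.17 and 4.20 with LY294002, in the dim part of the array.

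Among genes known to be induced by histone deacetylase inhibitors, 1 rose and 0 fell by limma, beside 0.609% and 0.298% of all genes. Of 14 listed besides DHRS2, 11 were measured, with a median of 0.04, and 3 had an unadjusted p under 0.05 (1320 of 7713 over all genes). H2BC21, a core histone gene, rose by 1.12 ± 0.08 (limma adjusted p = 0.0294). It stood at 6.76, 6.53 and 6.76 with DMSO and 7.81 and 7.79 with LY294002. SAT1, the enzyme that acetylates spermidine and spermine, was at 0.88 ± 0.12 (0.0649), with 5.63, 5.96 and 5.97 against 6.78 and 6.70. SAT1 too was lowest on DMSO replicate 1. CDKN1A, the cyclin-dependent kinase inhibitor p21, stood at 9.53, 9.70 and 9.65 with DMSO and at 9.14 and 9.04 with LY294002. Both LY294002 arrays lie below every DMSO array, as in 13.4% of all genes, and its difference of -0.53 ± 0.07 did not pass (0.0539). TUBB3, a tubulin, was at -0.08 ± 0.04 (0.399). Of the 11, 8 lay within 0.25 of 0.

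Of 18 histone deacetylases and sirtuins listed, 15 were measured, and the differences of 14 lay within 0.25 log2 units of 0. By limma 0 passed (0.908% of all genes did), with 5 at an unadjusted p under 0.05 (1320 of 7713 over all genes), and the median was -0.02. SIRT1, an NAD-dependent deacetylase, was the highest at 0.70 ± 0.13 (limma adjusted p = 0.102), and SIRT7 followed at 0.22 ± 0.12 (0.429). SIRT5 at -0.17 ± 0.10 (0.443) and HDAC9 at -0.13 ± 0.04 (0.191) were the lowest. HDAC1, HDAC2 and HDAC3, the class I enzymes, were at 0.08 ± 0.10 (0.666), -0.02 ± 0.03 (0.671) and 0.22 ± 0.05 (0.136).

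Of the transcription factors, MYB was at 8.32, 8.35 and 8.36 with DMSO and at 8.89 and 8.61 with LY294002. The difference was 0.41 ± 0.09 (limma adjusted p = 0.132). Its relative MYBL2, a cell cycle gene, was at -0.52 ± 0.11 (0.123), and MYC at 0.0018 ± 0.09 (0.999). So 0 of 3 measured members passed limma (0.908% of all genes did), and 2 had an unadjusted p under 0.05 (1320 of all 7713).

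**Figure D4:**
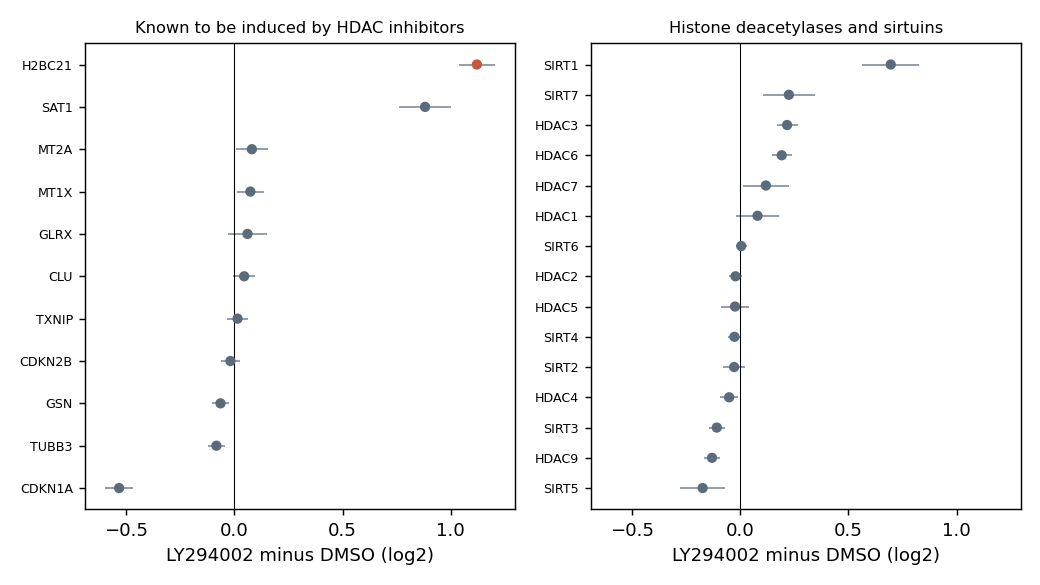
LY294002 minus DMSO difference, in log2 units with the standard error of the limma fit, for genes known to be induced by histone deacetylase (HDAC) inhibitors and for the deacetylases. Red marks H2BC21 (1.12), the gene past the threshold; CDKN1A (-0.53) is the lowest.

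The genes around DHRS2 had smaller differences than it. On chromosome 14, the 10 measured genes on either side of DHRS2, in the order of the RefSeq gene table, had differences from -0.20 to 0.16 with a median of -0.02. By limma 0 of the 20 passed, beside 0.908% of all genes, and 1 had an unadjusted p under 0.05, beside 1320 of 7713. The nearest measured gene on the one side, AP1G2, an adaptor protein of vesicle transport, was at -0.02 ± 0.04 (limma adjusted p = 0.809), with 2 annotated genes between. On the other side CPNE6, a calcium-binding copine, was at -0.14 ± 0.10 (0.466), with 17 annotated genes between, so the nearest relatives of DHRS2 fall in a stretch with no value here. The highest of the 20 were TINF2, a telomere protein, at 0.16 ± 0.04 (0.149) and PABPN1, a poly(A)-binding protein, at 0.08 ± 0.10 (0.651). The lowest was PCK2, the mitochondrial PEP carboxykinase, at -0.20 ± 0.09 (0.377).

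**Figure D5:**
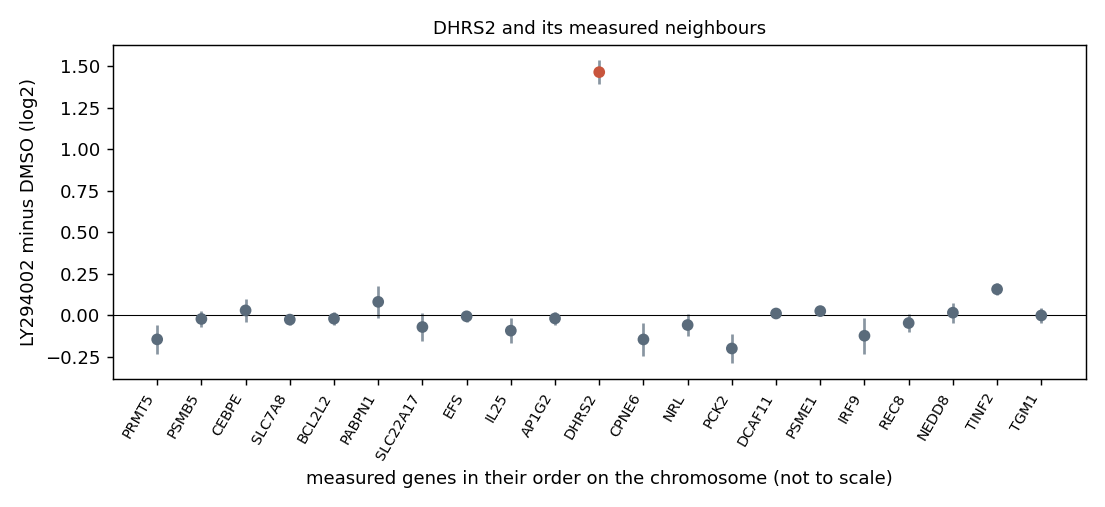
LY294002 minus DMSO difference in log2 units, with the standard error of the limma fit, for DHRS2 (red) and the 10 measured genes on either side in chromosome order; distances are not to scale. DHRS2 is at 1.46, and the 20 neighbours lie between -0.20 and 0.16.

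Over the whole series, 70 of 7713 genes (0.908%) and 0.96% of probe sets passed limma, 47 of the genes higher and 23 lower with LY294002. In 16.2% of genes the LY294002 values were both above every DMSO value, and in 13.4% both were below. Array medians were 6.26 to 6.29. The number of arrays limits the precision: of MAT2B, H2BC21, H2BC6, RYBP, HEXIM1 and PGAM1, which passed with all arrays, 0 of 6 passed in any fit without 1 array (limma adjusted p from 0.0685 to 0.199). Markers were checked against the labelled cell type. Of 10 measured markers of Hodgkin and B-lineage cells, 8 were above the median probe set (6.28) with DMSO, among them TNFRSF8 (CD30) at 8.23 ± 0.22 (SD, n = 3) and CD40 at 10.42 ± 0.13 (SD, n = 3), while CD79A at 6.05 and CD79B at 5.18 were below it. So were 3 of 3 myeloid and 4 of 6 epithelial markers, and 6 of 6 T cell markers were above it, at 6.71 to 8.80. The summed level of the epithelial list ran from 8.10 to 8.11 with DMSO and was 8.10 with LY294002, that of the myeloid list from 7.02 to 7.06 and from 6.997 to 7.09, and that of the T cell list from 10.22 to 10.28 and from 10.08 to 10.18. That of the Hodgkin and B-lineage list ran from 13.15 to 13.30 and from 13.10 to 13.12, and single markers in it differed more. MS4A1 (CD20) was at -0.999 ± 0.15, TNFRSF8 at -0.68 ± 0.17 and CD70 at 0.52 ± 0.07, and none passed limma (adjusted p = 0.0730, 0.157 and 0.0576). The part of any other cell type in the DHRS2 difference was not tested.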

How the data were processed

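KM-H2 RNA (3 DMSO and 2 LY294002 arrays) was measured on Affymetrix arrays with biotin-labelled cRNA. The authors deposited 1 value per probe set, taken as log2 from its range. Per the submitters' processing notes affy, a package for R, was used, and its version, background correction and summary step were, like the normalization, not given in the sources used here. In 3325 probe sets 2 or more arrays of a group hold the same value. The values were used as deposited. Of 8793 probe sets, 47 controls were left out. Of the 8746 fitted, 7840 had 1 gene symbol, 388 several and 518 none; only the first kind named a gene. A gene was represented by its brightest probe set, which gave 7713 genes. Differences were fitted by lmFit and eBayes of limma 3.58.1 (R 4.3.3), with treatment as the single factor and 3 residual degrees of freedom, and p-values were adjusted by Benjamini-Hochberg over the 8746 probe sets, with 0.05 as the threshold. The fit was tested on simulated data with independent normal noise and no identical values. That checks the code and does not give error rates for these arrays.

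DHRS2, the gene lists and the rule for named genes were chosen with earlier results of these data known. Named were a fixed set of genes, up to 3 members past the threshold and the 2 highest and 2 lowest of each list reported, the 5 genes most like DHRS2, the 3 highest and 3 lowest of like level, and the nearest neighbours. ACTB had only control probe sets, so its 3′ control served for the within-array check. Alternatives covered scaling, filters, priors, weights, a replicate block and leaving out each array. Results that need withheld items are not reported here. Promoters are RefSeq's. Figures used matplotlib 3.10.9 in Python 3.11.15.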

Additional observations from a re-analysis of the deposited data

How the results depend on the processing

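The log2 difference of DHRS2 was 1.46. It ran from 1.40 to 1.49 over quantile normalization, cyclic loess, median centring, weights per array and the replicate block. Some alternatives cannot change it. These are the dimmest 40% left out, probe sets with identical values in a group left out, and a robust prior with a trend. The mean of probe sets cannot either, since DHRS2 has 1. Without 1 array the difference was 1.40 to 1.504, and relative to GAPDH 1.42 to 1.52. DHRS2 kept rank 1 among genes of like level in all 17 alternatives, with a gap of 0.92 to 1.24 to the next gene. Under the filters, the prior and median centring that gap was unchanged at 1.12. Median centring cannot change it, since it moves all genes of an array alike. The rank uses the contrast that chose DHRS2 and carries no test. Its mean rank among probe sets was 19 with LY294002 (18 to 20 without 1 array) and 113 with DMSO (109.5 to 115), or 14 and 88.7 without identical values, where fewer probe sets are ranked. Of the 5 genes most like it, 3 to 5 were kept without 1 array and 0 by Pearson's correlation.

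Counts of calls moved more, and the cause was not tested. Genes past the threshold numbered 70 of 7713. They were 299 after quantile normalization (57.5% of them higher, against 67.1%), 264 after cyclic loess, 147 after median centring and 17 with array weights. The filters left fewer genes, of which 203 of 4643 passed without dim probe sets and 510 of 4771 without identical values. Without 1 array the count was 0 to 4 by limma, with 946 to 2085 genes at an unadjusted p under 0.05. For the SDR family the count was 1 of 36. It was 3 after quantile normalization (2 of them higher), cyclic loess and median centring, and with the robust prior. Without dim probe sets it was 3 of 26, and without identical values 4 of 26, with 3 higher and BDH2 lower. It was 2 with the mean of probe sets and 0 with array weights. For genes known to be induced by deacetylase inhibitors it was 1 of 11. It was 3 after quantile normalization, cyclic loess and median centring, 3 of 9 without dim probe sets and 3 of 7 without identical values. In each of these settings 2 were higher and CDKN1A was lower. The count was 2 with the robust prior and 0 with array weights. Without 1 array both counts were 0. Without identical values 2 of 18 carbonyl enzymes and 1 of 10 deacetylases passed, all of them higher. Of the 3 MYB family genes, 2 passed there, MYB higher and MYBL2 lower. After quantile normalization 1 MYB family gene passed, MYBL2, which was lower. In these lists 0 passed otherwise. With the replicate block, 0 genes passed, overall and in each of these lists (820 at an unadjusted p under 0.05). The numbers are not shown to pair the arrays: deviations of same-numbered arrays correlated at 0.0021 and -0.21, and DMSO replicate 3 has no partner.

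The sign of 4 named genes near 0, none past the threshold in any fit, turned under some settings. MDM2 (-0.02) was 0.0034 after quantile normalization and 0.00061 after cyclic loess. MYC (0.0018) was -0.0423 after quantile normalization, -0.0054 after cyclic loess, -0.0026 after median centring, -0.0246 with array weights and -0.0739 to 0.0626 without 1 array. AP1G2 (-0.02) was 0.0063 after cyclic loess and -0.0544 to 0.0181 without 1 array, and PABPN1 (0.08) -0.0705 to 0.234 without 1 array.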
